A study of Gallus gallus with 2 samples.

Results

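The genes described here are 32 DNA repair and damage checkpoint genes of the chicken, read by 66 array probes, out of 5382 named genes and 43603 probes in all. They were taken by name: genes whose symbol starts with FANC, ERCC, MSH, MLH or PMS (the last 3 followed by a digit), and 36 listed genes, some of which share those symbols, of crosslink repair, end joining, excision repair and the damage checkpoint. Of those 36, 26 were found on the array through a RefSeq accession. The symbol rule added 6 more (FANCA, FANCB, FANCI, ERCC3, ERCC5 and PMS1). ATR, XPC, POLB, POLQ, XRCC1, XRCC4, XRCC5, WRN, RAD50 and MSH6 had no probe matched this way and were not analysed here, nor were 15 more genes of the symbol rule, among them MSH3, PMS2, ERCC4 and FANCM.

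Both cultures were DT40, a chicken B cell line, with both H2A.Z genes knocked out. One stably expressed FLAG-tagged H2A.Z.1 and the other FLAG-tagged H2A.Z-R80C, a mutant of this histone variant, and neither received tetracycline. The temperature listed for both was 38 °C. Each group was 1 array of total RNA, on the same slide and in the same scan, so no replicate error, test or p-value exists and every value describes these 2 arrays. The labels do not say whether each culture came from a single clone.

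Cells repair DNA by several routes that divide the work by type of lesion. The Fanconi anaemia proteins unhook crosslinks between strands, end joining reseals double-strand breaks, excision repair replaces damaged bases or stretches of a strand, and mismatch repair corrects copying errors. ATM, ATR and their partners sense breaks and stalled forks and hold the cell cycle. DT40 is known for its frequent homologous gene targeting, and has been widely used to disrupt vertebrate repair genes.

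Processed signals (background-subtracted spot brightness) were compared after dividing each array by its 75th percentile, 1078 for H2A.Z.1 and 1055 for R80C. Differences are log2, R80C minus H2A.Z.1, and a gene's value is the mean over its probes that were well above background on both arrays. Signals are printed before scaling. Marker sums and mean signals take in every matched probe, also those left out of the difference (for CD3E, 2 of 3 probes were measured). All 12 B cell markers with a matched probe were measured on both arrays, as were 4 of 6 T cell, 3 of 4 myeloid, 3 of 3 erythroid and thrombocyte and 4 of 5 fibroblast markers. The summed signal of the B cell markers was 280326 in H2A.Z.1 and 267378 in R80C cells, that of the T cell markers 80193 and 72374, nearly all of it from CD3D, and that of the fibroblast markers 910 and 1665. CD3E had a mean signal of 234 in H2A.Z.1 and 65.0 in R80C cells (difference -1.54), while CD3D, CD28 and CD8A differed by -0.071, 0.038 and 0.084. The last 2 of these were dim, each with 1 measured probe. Mean signals were 9.49 and 9.27 for CD28 and 20.7 on both arrays for CD8A. COL1A2 had 160 and 312 (0.94). COL3A1, LUM, POSTN, HBA1 and HBBA were dim, with mean signals of at most 9.19 on either array. The myeloid sum was 765 and 760, mostly from SPI1 (663 and 671). The erythroid and thrombocyte sum was 350 and 363, mostly from ITGB3. CSF3R was dim, with mean signals of 9.65 in H2A.Z.1 and 6.18 in R80C cells, and differed by -0.54 with 1 measured probe. CD4, GATA3, CD14 and DCN were not well above background on either array. Of the knocked-out H2A.Z genes only H2AFZ was read here, by 2 probes. Their signals were 1537 and 883 in H2A.Z.1 cells and 1475 and 933 in R80C cells. Where these probes sit on the knocked-out and the introduced sequence is unknown here, and they therefore check no label.

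All 32 repair genes were measured in both cultures, and all 66 of their probes lay well above background on both arrays. The dimmest reading was 29.9 on the H2A.Z.1 array (a BLM probe) and 28.3 on the R80C array (a DCLRE1C probe), where the lowest signals well above background were 6.95 and 5.81. No filter on dim probes therefore removed a member, and none was measured in only 1 culture. Less transcript per cell and fewer cells that carry it cannot be told apart in such bulk RNA.

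None of the 32 genes differed by 1.2-fold between the cultures. By that threshold 10.1% of the 4326 named genes measured on both arrays differed (4.07% higher and 5.99% lower in R80C), and 2.08% of those at or above the median signal. No repair gene reached 1.5-fold either, against 1.94% of all measured genes. The differences ran from -0.20 for NBN to 0.16 for FANCD2, with a median of 0.0165 and a standard deviation (SD) of 0.081. Over all measured genes the median was 0.013 and the SD 0.20, and over the brighter 2163 genes they were 0.021 and 0.098. Above 0 lay 18 of the 32 and 2405 of all 4326 genes, and below 0 lay 14 and 1921. The plot of the size of the differences shows the repair genes along the curve of the brighter genes, although only 13 of the 32 lay at or above that median signal.

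**Figure D1:**
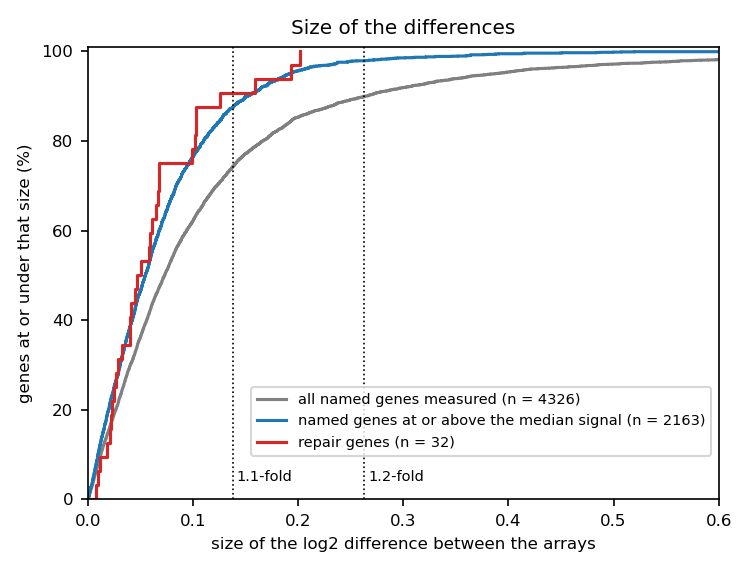
Share of genes (vertical axis, percent) whose log2 difference between the arrays is at or under a given size (horizontal axis), for the 32 repair genes, all 4326 named genes measured and the 2163 at or above the median signal; dotted lines mark 1.1-fold and 1.2-fold. The repair curve reaches 100% before the 1.2-fold line, where 10.1% of all measured genes are still to come.

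The only measure of error that these arrays offer is scatter between probes. Probes of the same gene scattered around their mean difference with an SD of 0.094 (2776 genes with several probes). This SD belongs to single probes on the same 2 RNAs and holds no variation between replicate cultures. Whether it is purely technical was not tested. Gene values are means over 1 or more probes, and the shares below are not matched for brightness. Of the repair genes, 24 (75%) lay within 1 such SD of 0, compared with 59.9% of all measured genes. NBN and LIG4, 6.25% of the repair genes, lay beyond 2 SD, compared with 16.6% of all. Of the 22 repair genes with several probes, the probes of 13 pointed in 1 direction and those of 9 in both. The same count over all 2776 genes with several probes is not given here, so whether this is usual stays unknown.

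**Figure D2:**
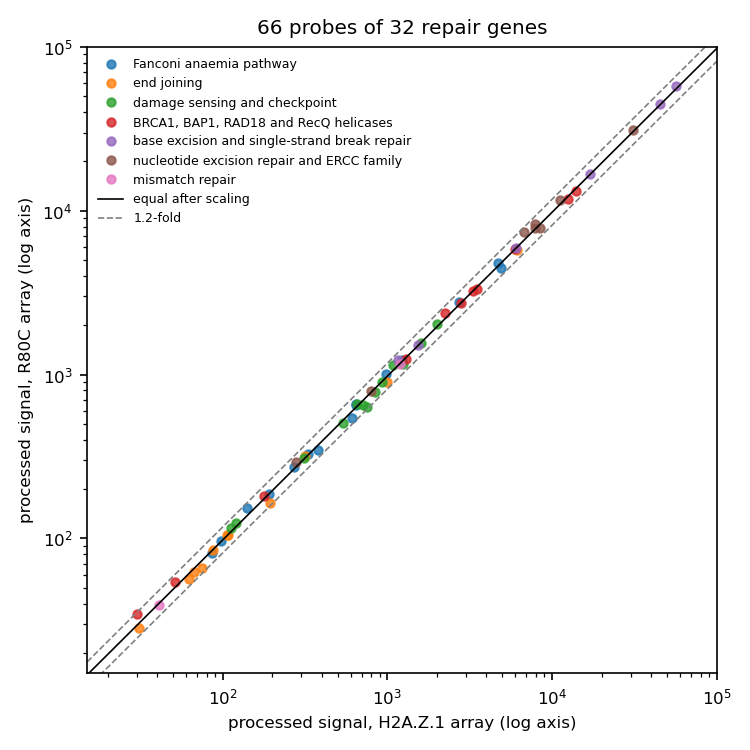
Processed signal of the 66 repair gene probes on the H2A.Z.1 array (horizontal) and the R80C array (vertical), both axes logarithmic, coloured by repair route; the solid line marks equal signals after scaling and the dashed lines 1.2-fold. All 66 probes lie between the dashed lines.

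The Fanconi anaemia group held 9 measured genes (15 probes), 6 above and 3 below 0, with a median of 0.040. These counts and the median take in the crosslink nucleases DCLRE1A and DCLRE1B, which carry no FANC name and lay above that median. FANCD2, the protein whose monoubiquitination switches the pathway on, was at the upper end. Its only probe read 141 in H2A.Z.1 and 154 in R80C cells, a difference of 0.16 or 1.12-fold. FANCI, its partner in the clamp on DNA, differed by 0.011 over 2 probes.

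The core complex, the ubiquitin ligase that modifies FANCD2 and FANCI, had members on both sides of 0. FANCL, its catalytic subunit, was the lowest of the group. One FANCL probe read 4927 in H2A.Z.1 and 4503 in R80C cells, and the other 381 and 347. Both were thus lower in R80C and by nearly the same step, -0.099 and -0.11. FANCA stood at 0.067 (1 probe) and FANCG at 0.040, while FANCC stood at -0.0076. FANCB differed by -0.041, and its 2 probes pointed apart, at -0.14 and 0.056. Of the crosslink nucleases, DCLRE1A (SNM1A) stood at 0.058 and DCLRE1B (Apollo, which also acts at telomeres) at 0.047, with its 2 probes 0.0053 apart.

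All 4 measured end joining genes lay below 0, as did 1921 of all 4326 measured genes. Their median was -0.088, the lowest of the 7 groups. LIG4, the ligase that seals the ends, read 193 in H2A.Z.1 and 165 in R80C cells with its only probe, a difference of -0.19 or 1.14-fold lower. DCLRE1C (Artemis), the nuclease that opens hairpin ends, was dimmer. Its probes read 31.0 and 75.2 in H2A.Z.1 cells and 28.3 and 66.3 in R80C cells, and both were lower in R80C, with a mean of -0.13.

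PRKDC, the catalytic subunit of the DNA-dependent kinase that activates Artemis, was read by 6 probes, the most of any member. Their differences ran from -0.11 to 0.0092, 5 of 6 below 0, and the mean was -0.050. The brightest probe read 1000 in H2A.Z.1 and 904 in R80C cells, and the other 5 read between 62.1 and 108 in H2A.Z.1 cells. XRCC6 (Ku70), which holds broken ends, differed by -0.018, with probes at -0.071 and 0.034. XRCC6 and PRKDC changed sign with the processing and LIG4 and DCLRE1C did not.

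**Figure D3:**
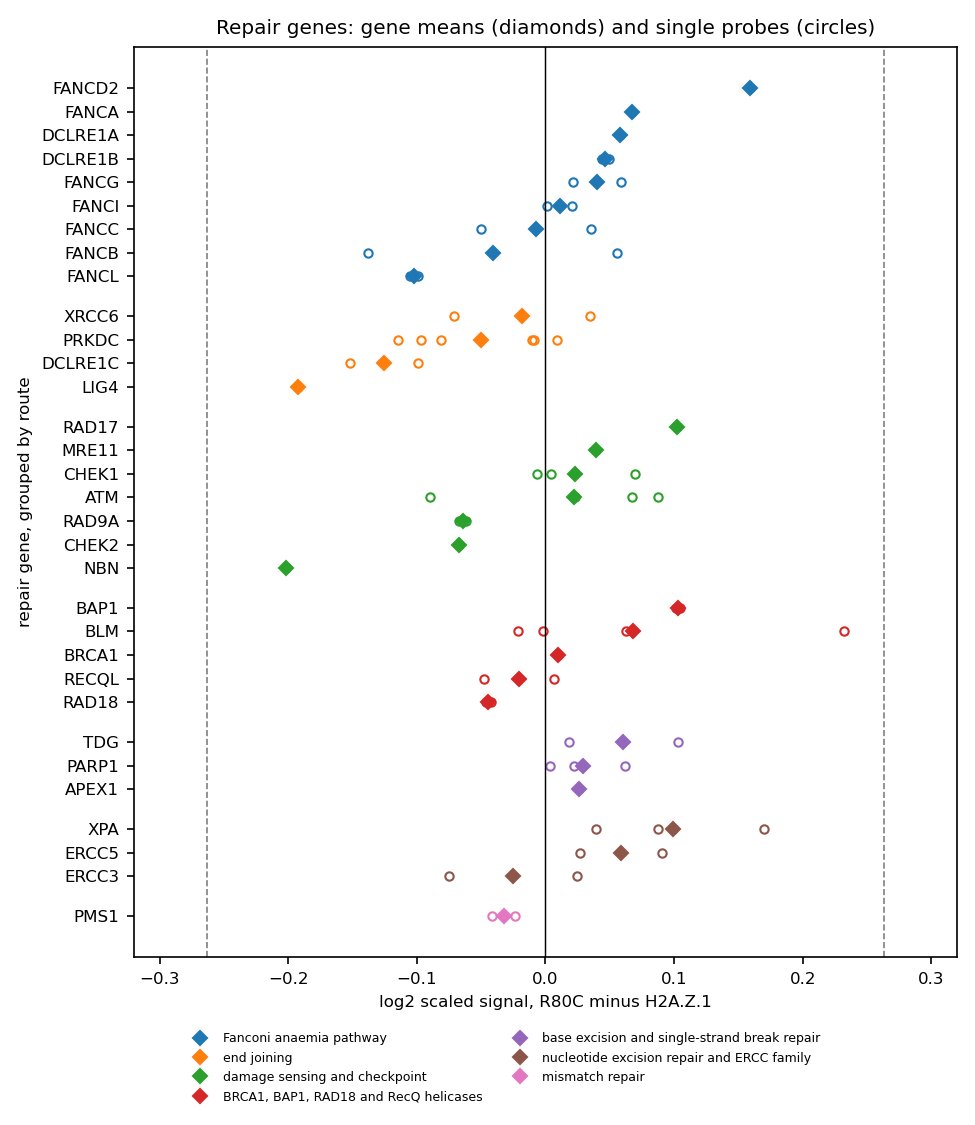
Log2 difference, R80C minus H2A.Z.1 (horizontal axis), of each of the 32 repair genes, grouped and coloured by route; diamonds are gene means over probes, open circles single probes and dashed lines 1.2-fold in either direction. NBN and LIG4 lie farthest below 0 and FANCD2 farthest above, each resting on 1 probe.

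Among the 7 genes of damage sensing and the checkpoint the median was 0.022, with 4 above and 3 below 0. NBN, the subunit of the MRE11 complex that recruits ATM to breaks, had the largest difference of all 32 genes in the main setting, although FANCD2 was larger in size with the array median. Its single probe read 748 in H2A.Z.1 and 637 in R80C cells, a difference of -0.20 or 1.15-fold lower in R80C. After normexp background correction with quantile normalization it was -0.098, smaller in size than FANCD2, LIG4, RAD17 and FANCA. MRE11, the nuclease of the same complex, read 656 and 660, a difference of 0.040.

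ATM, the kinase that responds to double-strand breaks, gave a mean of 0.022 over 4 probes. In H2A.Z.1 cells they read 1992, 711, 312 and 120, and in R80C cells 2043, 654, 310 and 125, in the same order. The second was lower in R80C, at -0.089, and the other 3 were higher, so the probes disagreed by more than the gene's mean. The checkpoint kinases CHEK1 and CHEK2 stood at 0.023 and -0.067.

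RAD17, which loads the checkpoint clamp, read 1085 in H2A.Z.1 and 1140 in R80C cells, a difference of 0.10 with 1 probe. RAD9A, a part of that clamp, lay on the other side at -0.065, with its 2 probes 0.0059 apart.

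BRCA1, BAP1, RAD18 and the RecQ helicases had a median of 0.0094 over 5 genes. BRCA1, which promotes homologous recombination, read 2781 in H2A.Z.1 and 2741 in R80C cells, and after scaling it differed by 0.0094. BAP1, a deubiquitinase of histone H2A, was the highest of the group at 0.10. Its probes read 2249 and 51.5 in H2A.Z.1 cells and 2368 and 54.1 in R80C cells, and the differences were 0.0039 apart although the probes differed widely in brightness.

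RAD18, the ligase that ubiquitinates PCNA at stalled forks, was the lowest. Its probes read 13999 and 12432 in H2A.Z.1 cells and 13274 and 11817 in R80C cells, a mean of -0.044. BLM, the helicase lost in Bloom syndrome, was the only member whose probes disagreed in sign by more than 0.2. Its mean of 0.068 came mostly from the dimmest probe, 29.9 in H2A.Z.1 and 34.4 in R80C cells (0.23). The other 3 lay between -0.022 and 0.063, and the brightest read 5999 and 5866. RECQL stood at -0.021.

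The 3 genes of base excision and single-strand break repair lay above 0, as did 2405 of all 4326 measured genes. Their median was 0.029. PARP1, which binds strand breaks and marks them with poly(ADP-ribose), had 3 probes. They read 56682, 45381 and 6007 in H2A.Z.1 cells and 57905, 45105 and 5895 in R80C cells, and after scaling they differed by 0.061, 0.022 and 0.0035. TDG, a glycosylase that removes thymine from mismatches with guanine, was the highest at 0.060. Its probes read 16993 and 1162 in H2A.Z.1 cells and 16846 and 1221 in R80C cells, with differences of 0.018 and 0.10. APEX1, the endonuclease that cuts at abasic sites, stood at 0.026.

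Nucleotide excision repair was represented by 3 genes with a median of 0.059. XPA, which checks the lesion and positions the nucleases, was higher in R80C with all 4 probes. Their differences ran from 0.039 to 0.17, the mean was 0.099, and the probe with the largest difference read 6758 in H2A.Z.1 and 7443 in R80C cells. The brightest probe read 31072 and 31260 and had the smallest difference, 0.039. ERCC5 (XPG), the nuclease that cuts on the 3′ side, stood at 0.059 with both probes above 0. ERCC3 (XPB), a helicase of the transcription factor TFIIH, was the lowest at -0.025. Its probes read 8478 and 7837 in H2A.Z.1 cells and 7880 and 7805 in R80C cells and pointed apart, at -0.075 and 0.025.

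Mismatch repair was represented by PMS1 alone, a homolog of the bacterial repair protein MutL. Its probes read 1199 and 41.2 in H2A.Z.1 cells and 1155 and 39.2 in R80C cells, and both were slightly lower in R80C after scaling, with a mean of -0.032. That value was 0.030 after normexp with quantile normalization, so its sign followed the processing.

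Across the 7 routes the medians ran from -0.088 to 0.059. Whether the routes differ between cultures cannot be tested with 1 array each. In all 12 settings, the main and the 11 alternatives, the medians of the Fanconi, checkpoint, base excision and nucleotide excision groups lay above 0. That of end joining lay below 0 in all 12. The median over all measured genes was itself above 0 in every setting except no filter (-0.0003). In the main setting it was 0.013, and the medians of those groups above 0 exceeded it. The Fanconi median takes in DCLRE1A and DCLRE1B, and without them it was not computed here. With the median probe the median over all measured genes was 0.014, above the checkpoint median of 0.0041. With the brightest probe it was 0.011, again above the checkpoint median of 0.0041. After normexp with quantile normalization it was 0.0064, above the checkpoint median of 0.0059 and the base excision median of 0.0060. The Fanconi median was 0.0017 when only its genes with several probes were kept, since FANCD2, FANCA and DCLRE1A have 1 probe each. Over all measured genes with several probes the median was 0.016. The median of BRCA1, BAP1, RAD18 and the helicases was above 0 in 8 and below in 4, and the single mismatch repair gene above in 2 and below in 10. These 12 settings overlap, so the counts are not separate checks. With no filter or a lenient flag the route medians equalled the main ones, since all 66 probes were well above background. The matrix values are the same signal times a factor, and the array median and spike-in scaling shift all genes by 1 step.

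A threshold of 1.1-fold was added after the values were seen. By it 3 of the 32 genes (9.38%) differed, FANCD2 higher and NBN and LIG4 lower, compared with 25.8% of all measured genes and 12.6% of those at or above the median signal. All 3 were among the 10 members with a single probe. In the main setting none of the 22 members with several probes reached 1.1-fold, against 20.6% of measured genes with several probes, while BAP1 (0.14) passed with the array median and DCLRE1C (-0.15) with its brightest probe. For genes with 1 measured probe the share was 35.2%.

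The sign of such small values depended on the processing for 12 of the 32 genes. In all settings tried 13 genes stayed above 0 and 7 below. The first set held FANCD2, FANCA, FANCI, DCLRE1B, BAP1, RAD17, MRE11, ATM, CHEK1, PARP1, TDG, XPA and ERCC5. The second held NBN, LIG4, DCLRE1C, FANCL, CHEK2, RAD9A and RAD18. BRCA1, BLM, PRKDC and XRCC6 were among those that crossed 0. For all 32 genes, no filter and the lenient flag returned the main value. For members with a single probe the median and brightest probe did so too, and the setting with several-probe genes left them out. Those settings could therefore not change the sign of such members. The same count over all measured genes is not given here, so whether such stability of sign is usual stays unknown.

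**Figure D4:**
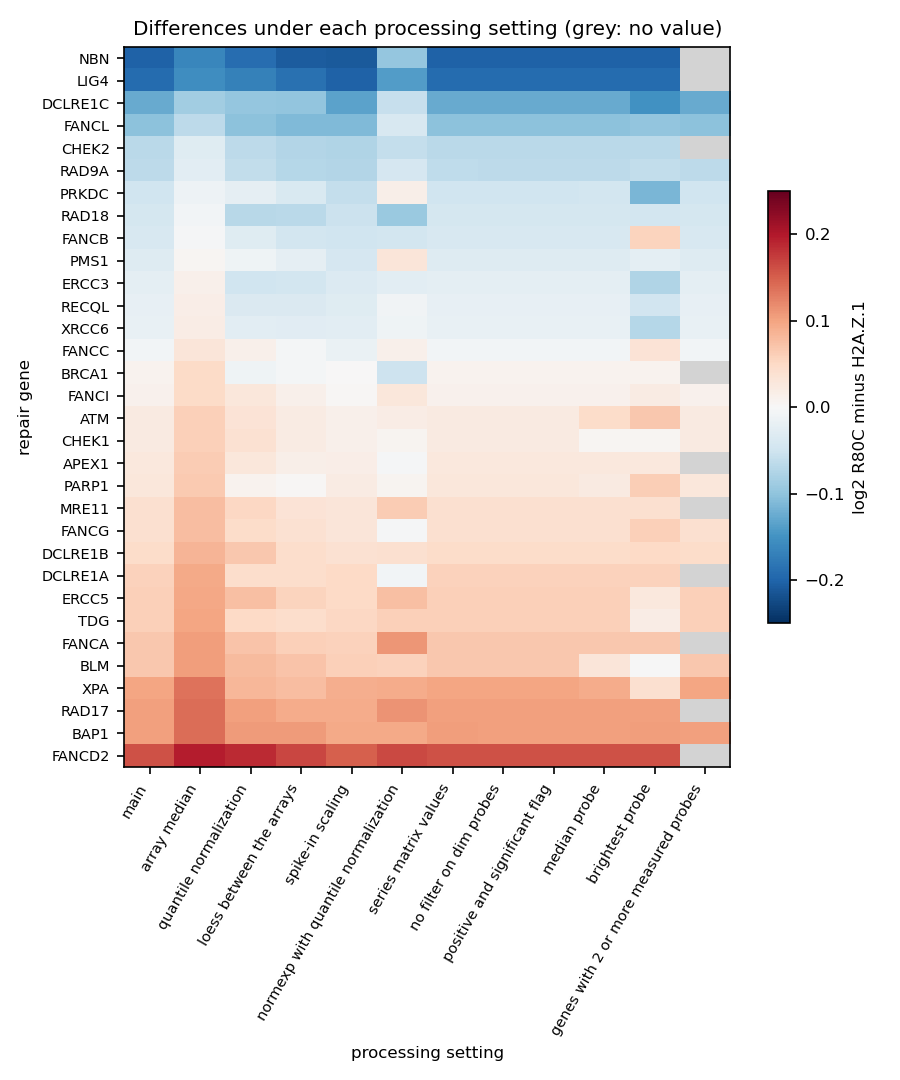
Log2 difference, R80C minus H2A.Z.1 (colour), of each repair gene (rows, ordered by the main value) under the main setting and 11 alternatives (columns); grey marks single-probe genes left out of the last column. FANCD2 stays red and NBN and LIG4 blue in every column that holds them, and the array median shifts all genes upward. FANCD2, NBN and LIG4 have a single probe each, so the no filter, lenient flag, median probe and brightest probe columns repeat their main values.

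Repair genes outside this group were read from a second list of 104 genes of recombination, translesion synthesis and the remaining excision, end joining and crosslink factors. Of these, 44 had a matched probe and 43 were measured on both arrays, with a median of 0.051 and an SD of 0.11. At 1.2-fold 1 was higher and 1 lower in R80C, where 4.07% and 5.99% of all measured genes were. With the array median the counts were 3 and 0, against 5.09% and 4.92% of all measured genes. RAD51D, which acts in homologous recombination, read 3279 and 2162 in H2A.Z.1 cells and 4099 and 2677 in R80C cells, 1.27-fold higher with both probes above 0. NEIL1, a glycosylase for oxidised bases, read 625 and 509 with 1 probe. Its difference of -0.26 was 1.2005-fold, at the very edge of the threshold. With quantile normalization it was -0.2555 and short of 1.2-fold, and it became -0.17 after normexp with quantile normalization. POLK, a translesion polymerase, was not well above background on either array.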

How the data were processed

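Total RNA (100 ng) of each culture was labelled with Cy3 and hybridised to a 1-colour Agilent chicken array, per the labels' protocols. The deposited scanner files hold linear spot intensity and 0 or 1 flags from Agilent Feature Extraction 11.5.1.1, per the file headers. Background had been subtracted and spatial trends removed array by array, with no normalization across arrays. The series matrix that the authors deposited also holds intensity, without a stated basis. Its columns proved to be the processed signal times 1.50 and 1.51, on a linear scale and not centred, with medians of 129.9 and 125.1. Why that factor was used stays unknown.

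Log2 processed signal was scaled on the 75th percentile of each array's non-control spots. Spots flagged as saturated or as outliers (1 and 0) were left out. Of 43603 probes, 30200 were measured, that is well above background on both arrays. Of 13060 probes with a RefSeq accession, 11935 matched a RefSeq table of assembly GRCg7b without versions, giving 5382 genes, of which 4326 were measured. Per the file headers the array grid is on galGal3, and the table therefore supplied names only. Probe sequences were not used here.

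With 1 array per group no test was run; precision is limited by the number of arrays. The spike-in probes (8) differed by 0.020 on average, from -0.029 to 0.071. One gene that the naming rule also finds is not reported here. The members and lists were chosen with earlier results of these data known. In each route the members farthest above and below 0 were named with both signals, with FANCD2, BRCA1, ATM, PRKDC, PARP1 and any member whose probes differed in sign by over 0.2; of the second list, genes at least 1.2-fold different. The 11 alternatives were array median, quantile, loess, spike-in scaling, normexp (offset 50, on the median spot signal, since the files used here hold no mean signal) with quantile normalization, the matrix values, no filter, a lenient flag, the median or brightest probe, and genes with several probes. R 4.3.3, limma 3.58.1, Python 3.11.15 and pandas 2.3.3 were used, and the calculation was tested on simulated data. In that test normexp with quantile normalization was run but not required to recover the simulated differences.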

Additional observations from a re-analysis of the deposited data

How the results depend on the processing

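No repair gene reached 1.2-fold under any of the 11 alternatives. The share of all measured genes that did was lowest, 3.40%, after normexp with quantile normalization; it was 6.81% of genes with several probes and 17.1% with no filter on dim probes, compared with 10.1% in the main setting. The median over the repair genes ranged from 0.0017 with genes of several probes to 0.054 with the array median, a scaling that raised every gene by the same step. The number of repair genes at least 1.1-fold different, a threshold chosen after the data were seen, was 3 in the main setting, 5 with the array median and 0 among genes with 2 or more measured probes, a setting that leaves out the 10 members with a single probe. It was 2 after normexp with quantile normalization and 4 with the brightest probe, while 14.7% and 26.1% of all measured genes passed, 29.8% with the array median and 20.6% of genes with several probes. Route medians ranged from 0.0017 to 0.078 for the Fanconi group, from -0.13 to -0.034 for end joining, from 0.0041 to 0.060 for damage sensing, from -0.011 to 0.047 for BRCA1, BAP1, RAD18 and the helicases, from 0.0060 to 0.066 for base excision, from 0.027 to 0.096 for nucleotide excision and from -0.041 to 0.030 for PMS1. The setting with several-probe genes was added for the routes after the data were seen. Of the single genes, NBN moved by more than the SD between probes of a gene (0.094), to -0.098 after normexp with quantile normalization, and FANCB, to 0.056 with the brightest probe; the cause was not tested. No paired analysis was possible because each group held 1 array, and for the same reason no array could be left out.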
